A study of Mus musculus with 2 samples.

Results

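The subunits of the transcription factor NF-κB and the genes that restrain it were examined on expression arrays of mouse macrophages. The members were 10 genes, listed by name with earlier results of these data known. They were the 5 subunits Nfkb1, Nfkb2, Rela, Relb and Rel, and the 5 inhibitors Nfkbia, Nfkbib, Nfkbie, Nfkbiz and Tnfaip3. They were found through the transcript accession that the array gives for each probe, which named 15 probes of these 10 genes, out of 22910 genes named on the array. The study compared macrophages of different age in culture, all grown from bone marrow of C57BL/6 mice that the labels give as male. Primary macrophages were collected at day 5 of culture with 100 ng/ml recombinant human M-CSF, the growth factor on which macrophages depend. Self-renewing macrophages were cells of the same kind of culture, kept in the same dose of M-CSF and collected after passage 4. Total RNA of each was hybridised to 1 array with 1 dye, and the labels name no LPS, cytokine other than M-CSF, deletion or transgene in either culture. The labels name no clone, and do not say whether the cultures came from the same mice or how many mice were pooled. Sex-linked genes, given below, differed between the arrays as between donors of different sex, contrary to the male label of both. With 1 array for each cell type, no difference given here has a replicate check, no test was made, and the number of arrays limits the precision of every value.

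NF-κB is a dimer of Rel family proteins. In resting cells it is held in the cytoplasm by IκB proteins, and signals from TNF, IL-1 and Toll-like receptors activate the IKK complex, which marks the IκB protein for destruction and frees the dimer to enter the nucleus. In macrophages it drives much of the inflammatory response. The genes of several inhibitors, of Nfkb2 and of Relb are themselves known targets of NF-κB, so that the factor feeds back on its own supply and restraint. Abundance of the RNA, which was measured here, does not report the location or activity of the protein.

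A probe is called detected where the scanner software flagged it as well above background, and all 15 probes were detected on both arrays, with none saturated. The signal of all 10 genes, and of all 15 probes, was higher in the self-renewing macrophages, where 47.9% of 15505 genes detected on at least 1 array and 51.7% of 32053 probes detected on both were higher by any amount. At least 2-fold higher were 5 of the 10 genes, Nfkb2, Relb, Nfkbia, Nfkbie and Nfkbiz, against 4.77% of all detected genes, and 8 of the 15 probes against 3.89% of all probes. At least 2-fold lower were 0 of the 10, against 8.37% of all detected genes, and over 10 genes a count of 0 is near that share. All detected genes include those on 1 array only. Of the 14003 genes detected on both arrays, as all members were, 588 were at least 2-fold higher and 781 lower. The median difference of the 10 genes was 0.93 on the log2 scale, or 1.91-fold, and that of all detected genes was -0.02. The median was 0.50 for the 5 subunits and 1.35 for the 5 inhibitors. Levels are given below as log2 of the background-corrected intensity relative to the 75th percentile of the same array's probes, which lay at intensities of 434 (primary) and 446 (self-renewing). A level of 0 is therefore the 75th percentile, and levels of different probes are not compared with each other. Differences are those of self-renewing minus primary macrophages. Where a gene had several probes, the one with the highest mean signal stands for it.

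**Figure D1:**
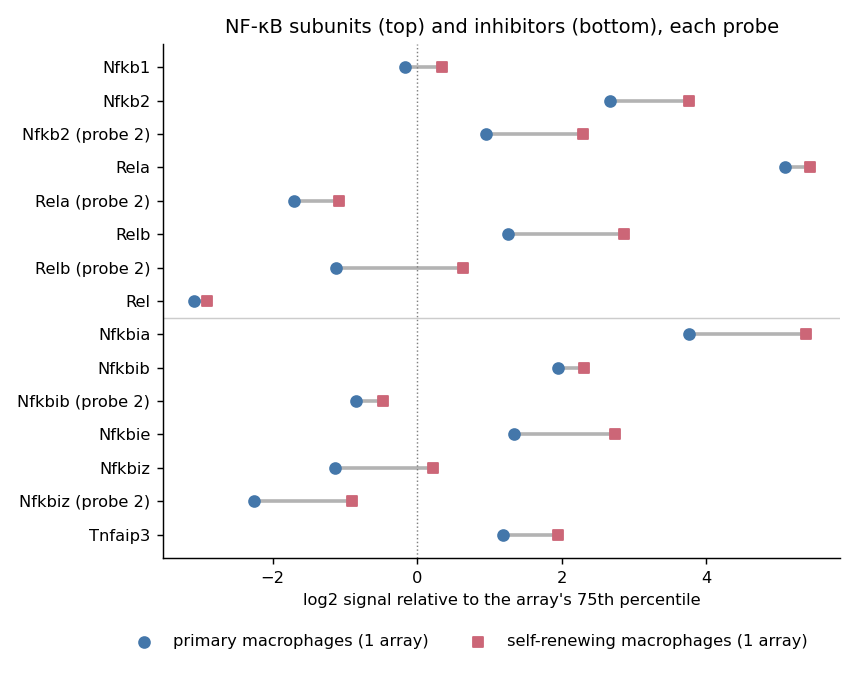
Level of each of the 15 member probes on the 2 arrays, as log2 signal relative to the 75th percentile of the same array, with the primary macrophages as circles and the self-renewing macrophages as squares; each symbol is 1 array and the dotted line is the 75th percentile. The square lies to the right of the circle for all 15 probes, with the shortest bar for Rel and the longest for the dimmer probe of Relb.

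The error that the scanner software assigns to a spot gave these differences an error of 0.20 to 0.23 on the log2 scale. Probes present in 5 or more spots varied by a median SD of 0.04 within an array, while different probes of 1 gene differed in their change by a root mean square SD of 0.33 over 5077 genes. These values cover the measurement of the spots and not the variation between cultures. Of the 15 probes, 14 differed by more than their scanner error and 11 by more than 2 such errors. The scanner error was close to 10% of the intensity for all of them but Rel, at 11.4% and 11.3%. These counts therefore mostly follow the sizes of the differences.

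Relb had the largest difference of the 5 subunits. It encodes RelB, the partner of the Nfkb2 product in the non-canonical pathway, in which the kinase NIK acts on Nfkb2's precursor protein. Its brighter probe had a level of 1.25 in the primary and 2.86 in the self-renewing macrophages, a difference of 1.61 or 3.05-fold. Its dimmer probe went from -1.13 to 0.63, a difference of 1.76 or 3.39-fold. Both probes thus placed the gene about 3-fold higher, and 1.38% of all probes on both arrays had a rise as large as that of the brighter one.

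Nfkb2 encodes a precursor protein that holds RelB in the cytoplasm and is cut to the DNA-binding subunit of the non-canonical dimer. The brighter probe had a level of 2.67 in the primary and 3.76 in the self-renewing macrophages, a difference of 1.09 or 2.13-fold, and the dimmer probe went from 0.96 to 2.29, a difference of 1.34 or 2.53-fold. The difference of the brighter probe was the one nearest above the 2-fold threshold, at less than 1 scanner error of 0.20 from it, while that of the dimmer probe lay further above it. The 250 bases before its first listed start are shown because 2 stretches that match the κB motif, described below, lie within 40 bases of the start. They are at chr19:46304487-46304736 of GRCm38.p6, plus strand, from RefSeq, 5′ to 3′, and capitals here and in the promoters below mark the bases that match the κB consensus or its 9-base form on either strand.
Nfkb2: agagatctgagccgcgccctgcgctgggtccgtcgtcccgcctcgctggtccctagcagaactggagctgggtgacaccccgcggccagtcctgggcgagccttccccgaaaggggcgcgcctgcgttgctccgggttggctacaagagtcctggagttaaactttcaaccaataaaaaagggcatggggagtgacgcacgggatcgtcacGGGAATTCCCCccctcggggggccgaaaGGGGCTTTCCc

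The 3 subunits of the canonical pathway differed less. Nfkb1, which encodes the precursor of the DNA-binding partner of RelA, was measured by 1 probe with a level of -0.17 in the primary and 0.34 in the self-renewing macrophages, a difference of 0.50 or 1.42-fold. Rela encodes RelA, the main transactivating subunit, and its brighter probe went from 5.09 to 5.43, a difference of 0.34 or 1.27-fold. The dimmer probe of Rela went from -1.71 to -1.08, a difference of 0.62 or 1.54-fold. All 3 probes were higher in the self-renewing macrophages by less than 2-fold, and rises as large as that of the brighter Rela probe were seen for 21.2% of all probes.

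Rel encodes c-Rel, a transactivating subunit known for its role in lymphocytes and in cytokine genes of myeloid cells. It had a level of -3.09 in the primary and -2.91 in the self-renewing macrophages, a difference of 0.18 or 1.14-fold. This was the smallest difference among the members and the only one below its scanner error, which was 0.23, so that it was not distinguishable from equal signal on these arrays. Its probe was dim, with an intensity of 50.8 in the primary and 59.4 in the self-renewing macrophages. The promoter is shown as the one with a κB match at the gene with the smallest difference, at chr11:23770970-23771219 of GRCm38.p6, minus strand, from RefSeq.
Rel: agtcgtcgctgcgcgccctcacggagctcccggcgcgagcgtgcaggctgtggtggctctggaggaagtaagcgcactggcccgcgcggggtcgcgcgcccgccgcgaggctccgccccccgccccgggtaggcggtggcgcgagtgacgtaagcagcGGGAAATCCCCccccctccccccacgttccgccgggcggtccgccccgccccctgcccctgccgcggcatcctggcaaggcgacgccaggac

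Of the inhibitors, the classical IκB proteins bind dimers in the cytoplasm. Nfkbia encodes IκBα, which is destroyed first on stimulation and is then made anew under the control of NF-κB, a feedback loop that ends the response. Its probe had a level of 3.76 in the primary and 5.39 in the self-renewing macrophages, a difference of 1.63 or 3.09-fold, which was close to that of Relb, and which of the 2 genes had the larger one turned with the processing, at 1.56 for Nfkbia and 1.63 for Relb after normexp background correction. In intensity units it rose from 5866 to 18668, and 1.34% of all probes had a rise as large. Its promoter is shown as that of the best known feedback target, at chr12:55492648-55492897 of GRCm38.p6, minus strand, from RefSeq.
Nfkbia: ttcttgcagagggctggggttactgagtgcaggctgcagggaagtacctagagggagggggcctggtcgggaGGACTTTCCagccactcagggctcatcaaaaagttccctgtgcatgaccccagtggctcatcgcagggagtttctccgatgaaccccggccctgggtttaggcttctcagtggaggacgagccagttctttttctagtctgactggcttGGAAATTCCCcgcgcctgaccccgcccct

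Nfkbie encodes IκBε, which is likewise induced by NF-κB, with slower kinetics than IκBα. Its level was 1.34 in the primary and 2.74 in the self-renewing macrophages, a difference of 1.41 or 2.65-fold. Nfkbib encodes IκBβ, the IκB protein that is not part of the rapid feedback loop. Its brighter probe went from 1.95 to 2.31, a difference of 0.36 or 1.28-fold, and its dimmer probe from -0.84 to -0.47, a difference of 0.37 or 1.29-fold. The probes of Nfkbib gave nearly the same value, and the gene was the inhibitor with the smallest difference. The promoter of Nfkbie is shown for its κB match, at chr17:45555450-45555699 of GRCm38.p6, plus strand, from RefSeq.
Nfkbie: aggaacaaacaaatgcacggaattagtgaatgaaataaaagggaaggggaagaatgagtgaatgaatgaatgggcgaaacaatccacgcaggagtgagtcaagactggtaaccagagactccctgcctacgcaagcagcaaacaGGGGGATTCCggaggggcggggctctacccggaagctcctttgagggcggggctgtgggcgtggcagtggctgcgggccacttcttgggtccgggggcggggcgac

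Nfkbiz encodes IκBζ, an IκB protein of the nucleus that acts on chosen targets such as secondary response genes, in part as a coactivator. Its brighter probe had a level of -1.14 in the primary and 0.21 in the self-renewing macrophages, a difference of 1.35 or 2.55-fold. Its dimmer probe went from -2.26 to -0.91, also a difference of 1.35. The probes gave the same change to the precision printed.

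Tnfaip3 encodes a ubiquitin-editing enzyme that acts upstream of IKK on the signalling complexes of TNF and Toll-like receptors. Its level was 1.18 in the primary and 1.96 in the self-renewing macrophages, a difference of 0.77 or 1.71-fold. It was the gene nearest below the 2-fold threshold, and 6.45% of all probes had a rise as large. Its promoter, before the first listed of 2 start sites, is shown for the κB matches close to the start, at chr10:19015411-19015660 of GRCm38.p6, minus strand, from RefSeq.
Tnfaip3: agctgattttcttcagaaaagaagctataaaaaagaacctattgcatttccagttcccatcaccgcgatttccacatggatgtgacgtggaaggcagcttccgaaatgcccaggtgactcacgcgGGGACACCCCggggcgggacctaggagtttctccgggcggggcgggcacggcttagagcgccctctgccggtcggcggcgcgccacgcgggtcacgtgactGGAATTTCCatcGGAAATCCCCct

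**Figure D2:**
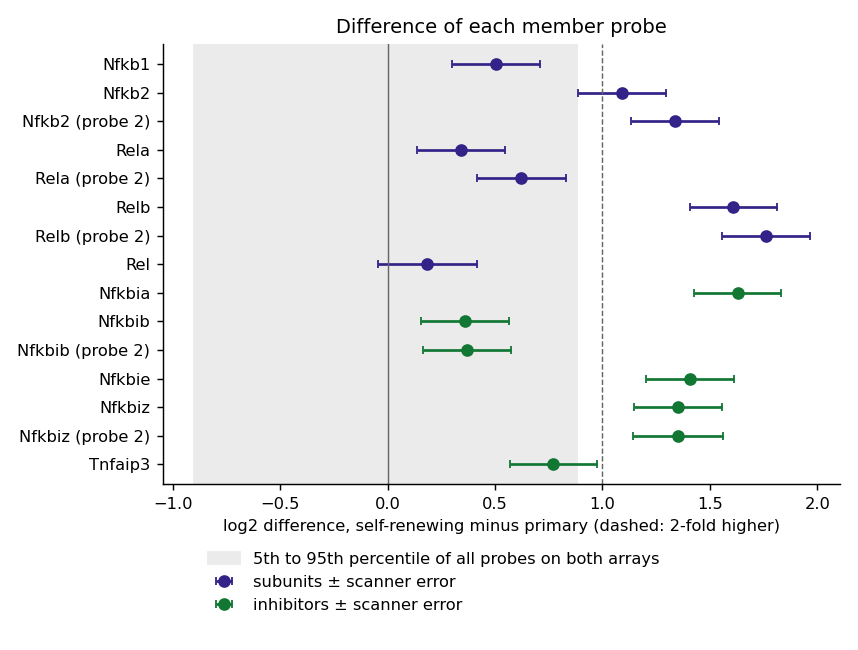
Difference of each member probe between self-renewing and primary macrophages on the log2 scale (1 array each), with bars for the scanner's error of the spots; the dashed line marks 2-fold and the grey band runs from the 5th to the 95th percentile of the 32053 probes on both arrays, -0.90 to 0.88. The 8 probes of Nfkb2, Relb, Nfkbia, Nfkbie and Nfkbiz lie beyond the band and the dashed line, and the bar of Rel crosses 0.

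A constant scaling of an array cancels when the changes of 2 members are set against each other, so unequal change within the group could be read apart from the scaling. Relb rose more than Rela by 1.27 on the log2 scale, or 2.41-fold, and the 4 possible pairs of their probes gave 0.99 to 1.42. Relb rose more than Rel by 1.43, with a scanner error of 0.31. Nfkb2 rose more than Nfkb1 by 0.59, and the other probe pair gave 0.84. In these pairs, chosen with earlier results of these data known, the non-canonical subunits rose more than the canonical ones. The amounts were above the scanner errors of 0.29 to 0.31, but with no replicate. The gap of Nfkb2 over Nfkb1 rested on 1 probe of Nfkb1, where probes of 1 gene varied by an SD of 0.33.

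The same was done for the inhibitors, with pairs likewise chosen with earlier results known. Nfkbia rose more than Rela, the subunit it mainly restrains, by 1.29 on the log2 scale, or 2.44-fold, and the pair with the dimmer Rela probe gave 1.01. Nfkbia rose more than Nfkbib by 1.27 and Nfkbie more than Nfkbib by 1.05. Nfkbia rose more than Tnfaip3 by 0.86, with a scanner error of 0.29. The IκB genes of the feedback loop therefore changed unequally with the IκB gene outside it, by 2.41-fold for Nfkbia and 2.07-fold for Nfkbie.

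The 5 genes with a pair of probes gave the same side of the 2-fold threshold by either probe. The changes of the 2 probes differed by 0.25 for Nfkb2, 0.28 for Rela, 0.15 for Relb, 0.008 for Nfkbib and 0.001 for Nfkbiz on the log2 scale. All 5 gaps were below the root mean square SD of 0.33 seen between probes of 1 gene across the arrays. Nfkb1, Rel, Nfkbia, Nfkbie and Tnfaip3 rested on a single probe each.

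The members kept their direction and their side of the threshold in 8 other ways of processing the arrays. The authors' own table multiplies each array by 1 constant, and it was used without the scaling to the 75th percentile. Together these 2 changes added 0.19 on the log2 scale to the difference of each member, so that Nfkbia stood at 1.82 and Tnfaip3 at 0.96. With those values 6.68% of all detected genes were at least 2-fold higher, and 49.2% of the genes past 2-fold in either direction were the higher ones, against 36.3% with the 75th percentile. Over the 8 alternatives the difference of Nfkb2 ran from 1.07 to 1.28, that of Relb from 1.59 to 1.80, that of Nfkbiz from 1.13 to 1.54 and that of Rel from 0.10 to 0.37.

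**Figure D3:**
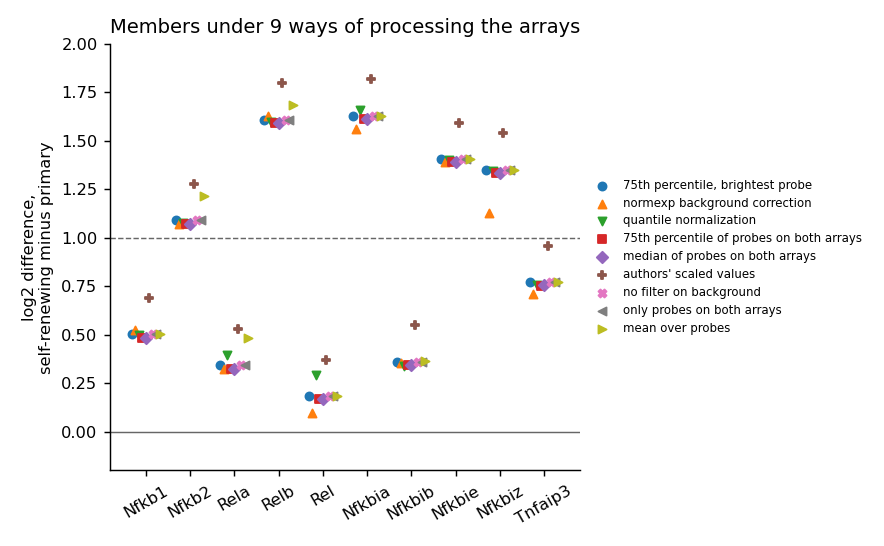
Difference of the 10 members between self-renewing and primary macrophages on the log2 scale (1 array each), under the 9 ways of processing, each with its own symbol; the dashed line marks 2-fold. Nfkb2, Relb, Nfkbia, Nfkbie and Nfkbiz lie above the dashed line with all 9 and the other 5 genes below it, and the authors' scaled values are the highest for every gene.

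The promoters of 7 of the 10 members were in the RefSeq table used, which left Nfkb1, Relb and Nfkbiz without one. They were searched over the 250 bases before each listed start, on both strands, for the κB consensus, a run of G, a purine, 2 free bases, pyrimidines and a closing pair of C, and for the 9-base form GGNNTTTCC. The motifs overlap at several places. The consensus was found in 5 of the 7 members, Nfkbia, Nfkbie, Nfkb2, Tnfaip3 and Rel, and in 8.23% of 27025 genes in the table, or 7.25% of all 32851 promoters. GGNNTTTCC was found in 4 of the 7, all but Nfkbie among those 5, and in 5.62% of genes or 4.93% of promoters. A match is a description of the letters and neither a bound site nor a cause of a level, and no match says only that these letters are not in the window.

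In the printed promoters, the consensus match of Nfkbia lay 29 to 20 bases before the start, with a separate 9-base match at 178 to 170. The first Nfkb2 start had matches at 39 to 29 and at 11 to 2 bases before it, and its other listed starts had 1 match each, at 236 to 227 and 225 to 216. The match of Nfkbie lay at 106 to 97, and that of Rel at 92 to 82. The first Tnfaip3 start had matches at 125 to 116, 24 to 16 and 12 to 3, and its other start had none. Nfkbib and Rela had none in the window. The 5 genes with a match spanned the whole range of differences, from 0.18 for Rel to 1.63 for Nfkbia, while Nfkbib and Rela stood at 0.36 and 0.34. Over all detected genes with a promoter in the table, 5.63% of 1225 with the consensus and 4.50% of 11105 without it were at least 2-fold higher, and the medians were -0.03 and -0.01.

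**Figure D4:**
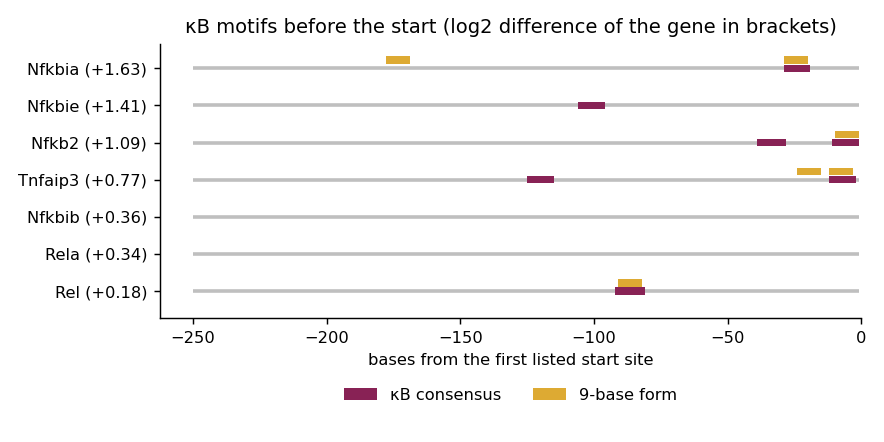
Places of the κB consensus and of its 9-base form over the 250 bases before the first listed start of the 7 members with a promoter in the table, in bases from the start, with the genes ordered by their log2 difference in brackets. Matches stand before Nfkbia, Nfkbie, Nfkb2, Tnfaip3 and Rel, and none before Nfkbib and Rela.

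The other genes of the pathway were taken as lists from textbook knowledge and read in the order in which a signal passes. Of 15 receptors that signal to NF-κB, 14 were detected, 8 higher and 6 lower, with a median of 0.10. Tlr2, the receptor for bacterial lipopeptides, was at least 2-fold higher, from a level of 2.65 in the primary to 4.56 in the self-renewing macrophages, or 3.75-fold. Cd40, the receptor for a T cell ligand that signals through both pathways, went from -0.22 to -2.89 and was 6.38-fold lower. Tlr7, the receptor for single-stranded RNA, went from 2.92 to 1.09 and was 3.56-fold lower. Of the remaining receptors, those detected on both arrays lay within 2-fold.

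Of 20 adaptors and ubiquitin ligases between receptor and IKK, all were detected, 14 higher and 6 lower, with a median of 0.15. None of the 20 was at least 2-fold higher, which is near the 4.77% of all detected genes that were.

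All 11 kinases and kinase partners had higher signal in the self-renewing macrophages. Their median difference was 0.19, and 1 of them was at least 2-fold higher, against 4.77% of all detected genes. When the mean over a gene's probes was used, 10 were higher and 1 lower. The catalytic subunits of IKK were nearly level between the arrays, with Chuk at 3.10 and 3.15, a difference of 0.05, and Ikbkb at 1.90 and 1.98, a difference of 0.08. The regulatory subunit Ikbkg went from 0.09 to 0.28, a difference of 0.19. Each of these 3 genes also had a dimmer probe that was lower in the self-renewing macrophages, by -0.09, -0.01 and -0.16, and a further dimmer probe of Ikbkg was higher by 0.36, so their direction was not settled. Ikbke, an IKK-related kinase known for its role in interferon induction and itself inducible, went from 0.15 to 1.46 and was 2.49-fold higher, with a second probe at 1.21. By their representative probes the genes of the IKK complex differed by at most 1.14-fold, while Nfkbia, whose product the complex acts on, differed by 3.09-fold.

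Of 20 other IκB-family and inhibitory proteins, all were detected, 12 higher and 8 lower, with a median of 0.09. None of the 20 was at least 2-fold higher, which is near the 4.77% seen over all detected genes. Among the 12 higher were the IκB-family genes Bcl3, 1.94-fold higher, and Nfkbid, 1.57-fold higher. The rise of Bcl3 was larger than that of the member Tnfaip3, at 1.71-fold, so rises of this size were not limited to the members. Sigirr, an inhibitory member of the IL-1 receptor family, went from 0.08 in the primary to -1.13 in the self-renewing macrophages and was 2.30-fold lower. The signs of the small differences in this list depended on the processing, with 10 higher and 10 lower after another background correction and 16 higher and 4 lower with the authors' scaled values. The 10 members were all higher with each of the 8 alternatives, but several of these could not change a member or shifted all members alike.

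Of 40 textbook target genes other than the members, 34 were detected, 20 higher and 14 lower, with a median of 0.32. At least 2-fold higher were 7 of the 34, against 4.77% of all detected genes, and at least 2-fold lower were 7, against 8.37%. After normexp background correction 4 were at least 2-fold higher, and with only probes on both arrays 4 were at least 2-fold lower. The list thus had genes past 2-fold on both sides. The 6 largest rises were those of the acute phase gene Saa3 (3.09 on the log2 scale, from a level of -1.06 to 2.03), the neutrophil chemokine Cxcl2 (2.63, from -2.62 to 0.01), the cytokine Tnf (1.65, from 1.28 to 2.92), the chemokine Cxcl10 (1.52, from 1.41 to 2.93), the prostaglandin synthase Ptgs2 and the cytokine Il1b (1.43, from -4.13 to -2.70). Ptgs2 was detected on the self-renewing array only and was at least 2.79-fold higher there. Such a bound sets the signal against the lowest detected signal of the other array, or against the probe's own signal there where that was higher. For Tnf, a second and dimmer probe gave 1.12.

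The 6 largest falls among the targets were those of the adhesion molecule Vcam1, the chemokine receptor Ccr7, the iron-scavenging protein Lcn2, which neutrophils also store in granules, the chemokine Cxcl1, the dendritic cell activation marker Cd83 and the growth factor Csf1. Vcam1, Ccr7 and Cxcl1 were detected on the primary array only, and were at least 63.1-fold, 17.7-fold and 7.83-fold lower in the self-renewing macrophages. Lcn2 went from 0.62 to -2.77, Cd83 from 2.24 to -0.07 and Csf1, which encodes M-CSF itself, from -1.38 to -3.25. Il1a, Il6, Ccl20, Csf2, Csf3 and Sele were not well above background on either array. Cytokine and chemokine genes thus stood on both sides, with Cxcl2 higher and Cxcl1 lower in the self-renewing macrophages.

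**Figure D5:**
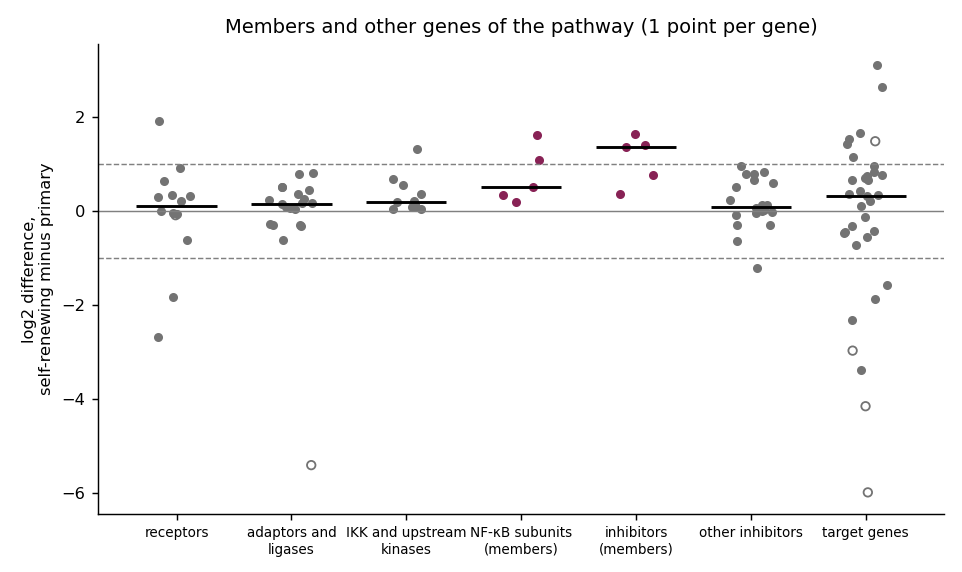
Difference between self-renewing and primary macrophages on the log2 scale (1 array each) for the genes of 7 groups of the pathway, 1 point per gene by its representative probe; open points are bounds for genes detected on 1 array only, bars are medians and dashed lines mark 2-fold in either direction. The 10 members all lie above 0, the kinases also do but within 2-fold apart from Ikbke, and the target genes spread to both sides.

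The cell cultures differed in other ways that move with this comparison. Macrophage markers were detected on both arrays, 10 of 10, with a median difference of 0.34 and a summed signal, in multiples of the 75th percentile, of 942 in the primary and 1238 in the self-renewing macrophages. Of these markers 8 were higher and 2 lower in the self-renewing macrophages. Past 2-fold were Mertk, 4.68-fold higher, and Fcgr1, 3.39-fold lower. Of 9 neutrophil and precursor markers with a named probe, 7 were detected in the primary and 4 in the self-renewing macrophages, 6 were at least 2-fold lower in the latter, and their summed signal was 104 and 6.41. S100a9, a defining neutrophil gene, was detected on the primary array only. Of the 8 such markers detected on at least 1 array, 7 were lower and 1 was higher in the self-renewing macrophages. The higher one, Cxcr2, was detected on the self-renewing array only, and Elane went from 3.05 to 2.58, or 1.39-fold lower. B cell markers summed to 2.09 and 0.345, with 5 and 3 of 6 detected, T and NK cell markers to 2.63 and 2.56, with 4 and 3 of 6, dendritic cell markers to 194 and 206, with 4 and 2 of 5 and nearly all of the sum from Siglech at levels of 7.60 and 7.69, mast cell markers to 0.217 and 0.116, with 4 and 2 of 5, erythroid markers to 1.52 and 0.573, with 3 and 2 of 5, and stromal markers to 0.363 and 0.441, with 3 and 2 of 6. The part of these cells in the members' differences was not tested, and in a culture measured as a whole, fewer cells of a type and less RNA per cell cannot be told apart. Both samples are labelled male, yet the Y-linked genes Eif2s3y, Kdm5d, Ddx3y and Uty were detected on the self-renewing array only, and Xist, the RNA of the inactive X chromosome, on the primary array only. The sex of the donors and the cell type can therefore not be told apart on these arrays.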

How the data were processed

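Total RNA of each of the 2 cultures was labelled with Cy3 and hybridised to an Agilent SurePrint G3 mouse array. The scanner output deposited by the authors (Agilent Feature Extraction 11.5.1.1) holds each spot's intensity with its background removed and its spatial trend corrected, the error of that intensity and flags for detection, saturation and outliers. The authors also deposited a table of the same intensity times 1 constant per array (1.07 and 1.19), whose choice is not given in the sources used here.

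The corrected intensity was divided by the array's 75th percentile over 56598 gene probes and put on the log2 scale. Of these probes 61.5% (primary) and 58.5% (self-renewing) were well above background. Control spots and 112 outlier spots were left out, and spots of a probe were averaged. Accessions matched 32988 probes to names in RefSeq's table of GRCm38.p6. A gene counted as detected if either array had it above background, and was given by its brightest probe. A gene detected on a single array was given as a bound. The call was 2-fold, chosen here. The members, the lists of pathway genes and cell type markers, and the pairs of members compared were chosen with earlier results of these data known. All members were named with every probe, and of each pathway list the genes past 2-fold, up to 6 in each direction, with Chuk, Ikbkb and Ikbkg. The result of 1 gene that met this rule is not reported here. Bcl3, Nfkbid, S100a9, Cxcr2, Elane, Mertk, Fcgr1, Siglech and the sex-linked genes were named after their values were seen.

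The 8 alternatives were normexp background correction (limma, offset 50, on median signals), quantile normalization, scaling by either the 75th percentile or the median of probes detected on both arrays, the table the authors scaled, dropping the filter on background, keeping only probes on both arrays, and averaging a gene's probes. Scripts used Python 3.11.15, numpy 2.4.6, pandas 2.3.3, scipy 1.17.1, matplotlib 3.10.9, R 4.3.3 and limma 3.58.1, and were tested on simulated data.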

Additional observations from a re-analysis of the deposited data

How the results depend on the processing

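All 80 values of the members under the 8 alternatives kept their direction and moved by less than 0.33 on the log2 scale, the spread between probes of 1 gene, and the counts of members at least 2-fold higher (5) and lower (0) did not move. The alternatives that drop or tighten the filter on background could not change a member, since every member probe was detected on both arrays. Averaging probes could not change the genes with a single probe. Scaling by probes detected on both arrays and the authors' constants shifted all members by the same amount. The median ran from 0.01 to 0.29 for receptors, 0.12 to 0.34 for adaptors, 0.13 to 0.37 for kinases, 0.02 to 0.28 for other inhibitors and 0.13 to 0.51 for targets, so these small medians depended on the processing. Counts within the lists moved by over 1.5 times in 8 cases. With normexp, 0 other inhibitors were at least 2-fold lower and 4 targets at least 2-fold higher. With the authors' scaled values, 2 receptors, 1 adaptor and 2 other inhibitors were at least 2-fold higher. With only probes on both arrays, 0 adaptors and 4 targets were at least 2-fold lower, since genes on 1 array drop out. With the mean over probes, 1 adaptor was at least 2-fold higher. Over all genes, 739 were at least 2-fold higher and 1298 lower; normexp gave 429 and 750, no filter on background 1192 and 2336, only probes on both arrays 588 and 782, and the authors' scaled values 1035 and 1067.

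No paired analysis was possible because only 1 array stands for each culture. Leaving out a replicate was not possible for the same reason. The difference of Rel, 0.18, was below its scanner error of 0.23 and was not distinguishable from equal signal.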
